A study of Mus musculus with 30 samples.

Results

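Macrophage, neutrophil and MHC class II transcripts were followed in libraries made from sorted natural killer (NK) cells. The list holds 33 symbols, chosen by name: 15 genes typical of macrophages and monocytes, 12 typical of neutrophils and activated myeloid cells, and 6 of the MHC class II pathway and dendritic cells. Of these, 32 were read from the table of 30587 genes, since H2-Eb1 was not analysed here, and 30 passed the filter for testing, which asks for 3 or more libraries at a signal of 10 or above. The 2 that did not pass, Fcgr1 and Mmp9, each reached 10 in 2 libraries.

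All libraries came from mice whose Ncr1 (NKp46) locus carries iCre and whose Rosa locus carries the mTmG reporter, so that NKp46+ cells of the recipient are GFP+. In the F1 model, C57BL/6xBalb/c recipients (NKp46+/iCre.Rosa+/mTmG) received m157tgB2m+/- skin and were studied at day 10. In the B6 model, C57BL/6 recipients (NKp46iCre/iCre.RosamTmG/mTmG) received m157tgB2m-/- skin and were studied at day 20. In each model, CD49b+ NKp46-GFP+ cells from the graft, CD49a+ NKp46-GFP+ cells from the graft and from the recipient's own skin, and CD49b+ NKp46-GFP+ cells from spleen and blood gave 3 libraries per group, 30 libraries in all. NKp46 is also carried by other innate lymphoid cells, and the reporter marks the offspring of cells that once used the locus. Age is not stated, the labels do not say whether libraries come from separate animals, so p-values measure the spread between these libraries, and strain, genotype, graft and day cannot be told apart between the models. Values are signal, normalized between libraries by the authors and not divided by gene length, so levels are compared between libraries and not between genes.

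Macrophages take up debris and pathogens with scavenger and Fc receptors, and tissue macrophages make complement C1q and apolipoprotein E. Neutrophils carry granule proteins and the calcium-binding pair S100A8 and S100A9, and they follow chemokines through CXCR2. MHC class II molecules are made by dendritic cells, macrophages and B cells under the control of CIITA, with the invariant chain CD74 as their chaperone. Resting mouse NK cells are not known for any of these programmes, apart from Itgax (CD11c), which mouse NK cells also carry.

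Promoter letters of 2 members are shown because these genes stand for 2 of the programmes: H2-Aa, the alpha chain of the class II molecule I-A, and C1qb, the B chain of complement C1q. The stretches are RefSeq sequence (GRCm38.p6), on the minus strand, at chr17:34287824-34287973 for H2-Aa and chr4:136886201-136886350 for C1qb, just upstream of the annotated genes, read 5′ to 3′. Capitals mark matches, on either strand, to TGACG (the core of the X2 box of class II promoters), CCAAT (the core of their Y box) and GAGGAA (a purine-rich core typical of sites for the myeloid factor PU.1).
H2-Aa: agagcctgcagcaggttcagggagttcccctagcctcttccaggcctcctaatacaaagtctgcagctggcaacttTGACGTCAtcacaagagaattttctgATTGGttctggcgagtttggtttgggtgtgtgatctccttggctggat
C1qb: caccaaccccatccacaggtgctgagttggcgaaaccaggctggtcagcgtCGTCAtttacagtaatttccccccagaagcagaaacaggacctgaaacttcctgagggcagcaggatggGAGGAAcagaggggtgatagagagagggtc
H2-Aa holds both class II cores within 150 bases, with TGACG and its reverse complement overlapping in 1 palindrome, while C1qb holds the purine-rich core and 1 match to TGACG on the other strand. For the 23 analysed members with a RefSeq window of 300 bases, the upstream part of the window was searched. CCAAT was present in 34.8 percent, TGACG in 13.04 percent and GAGGAA in 52.2 percent, against 33.9, 17.8 and 23.3 percent of all 32851 windows. A member was counted if any of its windows matched, and Apoe and Ms4a7 had more than 1. The members' shares are thus by gene and the others by window. These matches are descriptions of letters, and no binding was measured.

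The sorted cells carried NK transcripts in every library, but at very different levels. Over 12 NK cell markers, the summed signal ran from 426 to 15998 in the 18 skin libraries and from 19046 to 25132 in the 12 libraries of spleen and blood. All 12 markers reached 10 in each circulating library and 7 to 12 did in skin. The mean log2 level of 20 pan-leukocyte transcripts lay 0.34 to 3.63 units below the circulating mean in skin libraries, and 6 of the 18 lay more than 2 units below. These 6 were libraries 2 and 3 of F1 recipient skin and libraries 1 and 3 of each B6 CD49a+ skin group. The make-up of the libraries also differed between skin and circulation. In skin libraries 16 abundant predicted genes (Gm symbols and clone names with a mean signal of at least 10000) held 32.9 to 79.02 percent of the signal and 8402 to 11300 genes reached 10, against 79.1 to 85.3 percent and 8129 to 8620 genes in circulating libraries. This difference goes with every comparison of skin with spleen, and its part in the results was not tested. In bulk libraries, fewer cells of a type and less RNA per cell cannot be told apart, and the part of other cells in the results below was not tested.

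**Figure D1:**
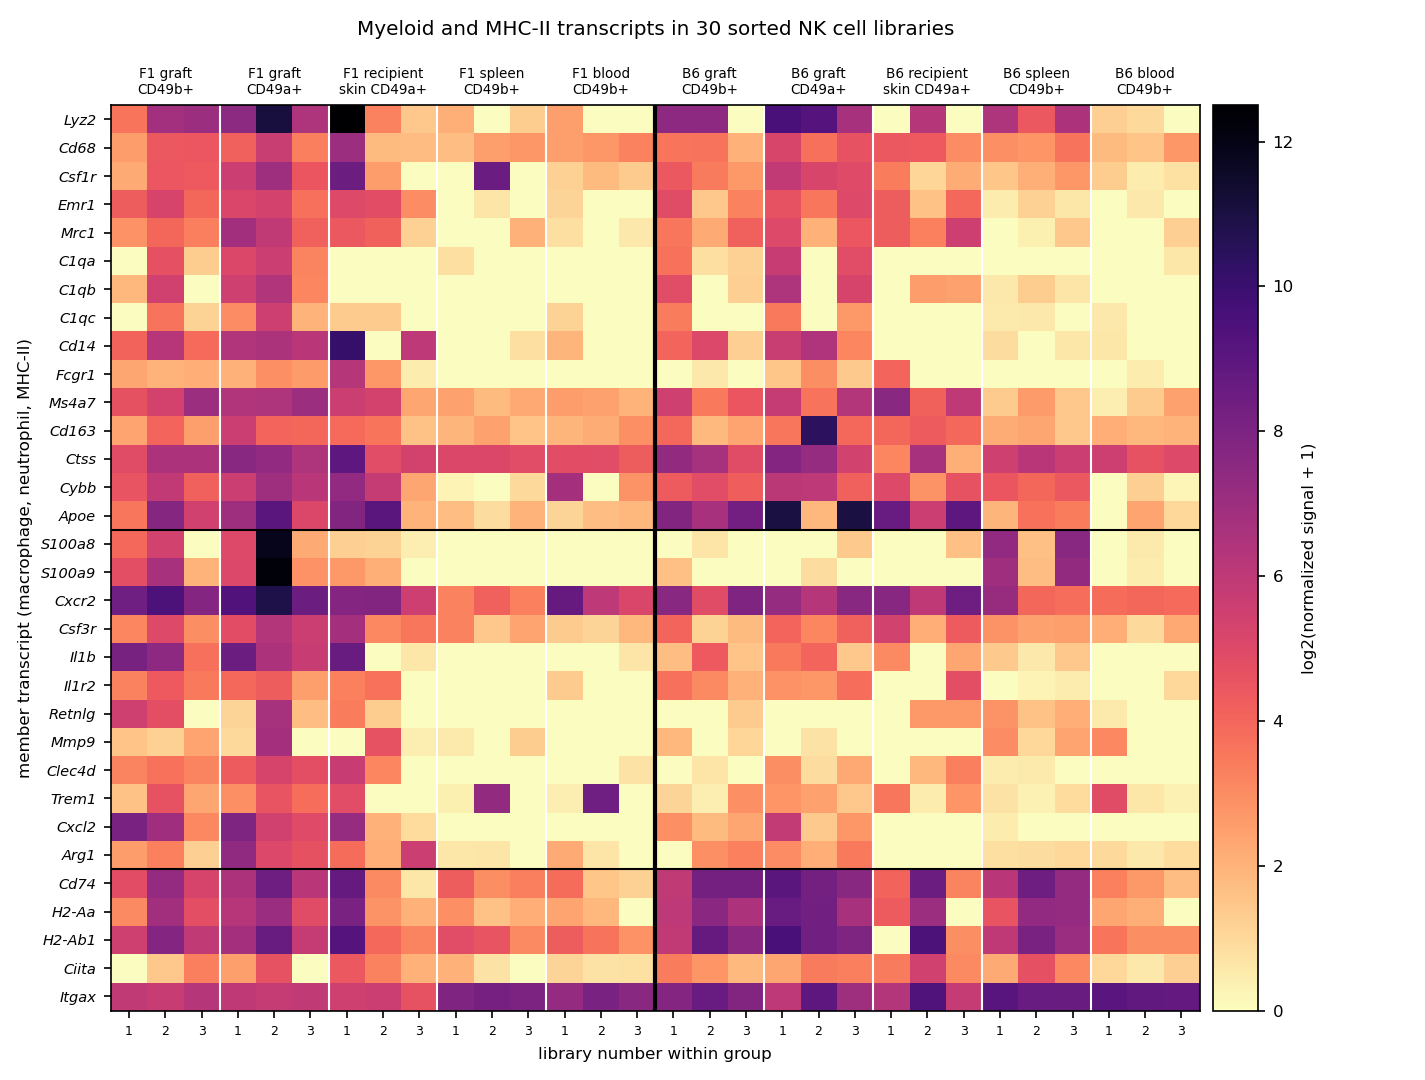
Signal of the 32 analysed members (rows; macrophage, neutrophil and MHC-II members divided by black lines) in each of the 30 libraries (columns, by group), as log2 of the signal plus 1. Most skin libraries are darker than circulating ones for the macrophage members, while S100a8 and S100a9 are dark in F1 graft CD49a+ library 2 (3721 and 4925) and, less so, in B6 spleen libraries 1 and 3.

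The largest number of members was called in the CD49a+ cells of the F1 graft, and most of these were macrophage and neutrophil genes. With limma on log2 of the signal plus 1, 20 of 30 tested members were higher and 1 lower in F1 graft CD49a+ cells than in F1 spleen at an adjusted p under 0.05, where 22.7 percent of all 16045 tested genes were called. The median change of the members was 4.43 (log2), against 0.39 over all tested genes. By list, 10 of 14 tested macrophage members and 9 of 11 neutrophil members were higher there, and of 5 MHC-II members 1 was higher and 1 lower. In F1 graft CD49b+ cells, 9 members were higher and 1 lower than in spleen (all genes called, 12.2 percent; member median 2.70), and in F1 recipient skin 6 were higher and 1 lower (15.7 percent; 2.10). In the B6 model, 6 (all of them macrophage members) were higher and 2 lower in graft CD49a+ cells (16.3 percent; 1.79), 4 were higher and 2 lower in recipient skin (28.8 percent; 0.05), and none passed by limma, without a block for library number, in graft CD49b+ cells (4.07 percent; 0.76), where 6 were higher and 2 lower at an unadjusted p under 0.05. At that unadjusted level 21.5 percent of all genes passed in B6 graft CD49b+ cells, so the count lay near that share. The share called among members was therefore above that of all genes in both F1 graft groups and B6 graft CD49a+ cells. It was below that of all genes in B6 recipient skin and B6 graft CD49b+ cells, and only a little above it in F1 recipient skin. A member that entered the test only through its high libraries had to differ. These counts, and the p-values of such members below, thus describe the list.

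**Figure D2:**
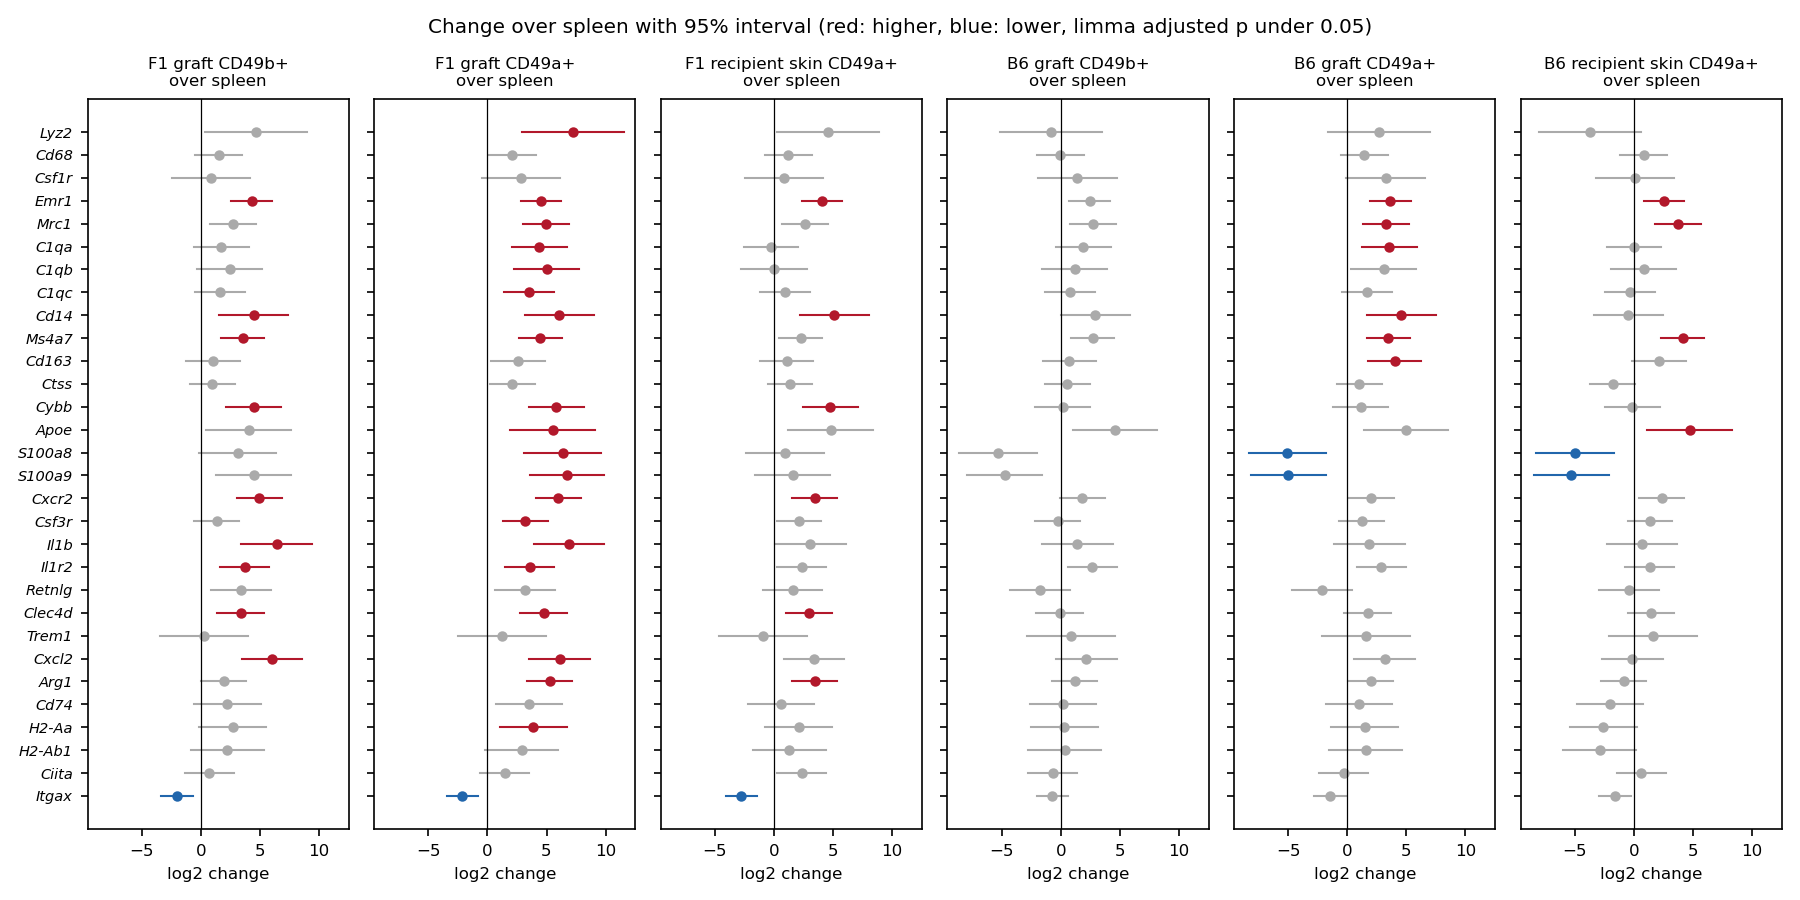
Fitted log2 change over spleen (points) with its 95% interval (lines) for the 30 tested members in the 6 skin groups, 3 libraries per group; red marks members called higher and blue members called lower by limma. F1 graft CD49a+ cells show 20 red members and B6 graft CD49b+ cells none.

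These splits of higher against lower members moved with the scaling of the libraries. Scaling the libraries to the 20 pan-leukocyte transcripts raised the median change of all genes to between 1.18 and 2.80. The split was then 28 to 0 in F1 graft CD49a+ cells and 24 to 0 in F1 recipient skin. In B6 it was 24 to 0 in graft CD49a+ cells and 11 to 0 in recipient skin. Over all 16045 tested genes it was 5860 to 35, 9214 to 50, 9698 to 26 and 7260 to 106, in the same order. Quantile scaling moved that median to between -0.19 and -0.05. The splits were then 14 to 1, 3 to 1, 1 to 2 and 2 to 2 in the same groups. Over all genes they were 1227 to 727, 734 to 601, 691 to 622 and 1432 to 1764. With either scaling, the share of members called in B6 recipient skin lay below that of all genes. With quantile scaling it lay near that of all genes in B6 graft CD49a+ cells. Without F1 graft CD49a+ library 2, 12 members were higher in that group, and without F1 graft CD49b+ library 2, 5 were higher in graft CD49b+ cells. In F1 recipient skin 2 were higher without library 1 and 13 without library 3. In B6, 2 were higher in graft CD49a+ cells without library 1, and 8 were lower in recipient skin without library 2. Another setting, chosen after seeing the data, left out the 6 skin libraries low in pan-leukocyte transcripts. F1 recipient skin and both B6 CD49a+ skin groups then held 1 library each, so their counts are not given. The split was 25 to 1 in F1 graft CD49a+ cells, 14 to 1 in F1 graft CD49b+ cells and 6 to 0 in B6 graft CD49b+ cells. Over all genes it was 4164 to 2302, 2981 to 1232 and 1982 to 766. The share of members called in B6 graft CD49b+ cells thus lay near that of all genes. Of 52 calls of single members in the 6 comparisons, 21 passed in every fit that left out 1 library of the groups compared.

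Emr1 was higher in each of the 18 skin libraries than in any of the 12 circulating ones, and Ms4a7 came close to that. Emr1 (Adgre1, chromosome 17, 57358691 to 57483527 on GRCm38) encodes F4/80, the classical surface marker of mouse macrophages. Its signal was 18.5, 37.5 and 15.03 in F1 graft CD49b+ libraries 1 to 3, 34.7, 40.3 and 12.3 in F1 graft CD49a+ cells and 31.4, 26.7 and 7.104 in F1 recipient skin, against 0, 0.5605 and 0 in F1 spleen. The B6 grafts had 29.5, 1.68 and 8.53 in CD49b+ cells and 23.5, 10.6 and 31.1 in CD49a+ cells. B6 recipient skin was at 18.6, 2.04 and 14.5, against 0.362, 1.27 and 0.501 in B6 spleen. The lowest skin library was at 1.68 and the highest circulating one at 1.27. The changes over spleen were 4.31 ± 0.84 (adjusted p = 0.00193) in F1 graft CD49b+ cells, 4.54 ± 0.84 (adjusted p = 0.000651) in F1 graft CD49a+ cells and 4.06 ± 0.84 (adjusted p = 0.00255) in F1 recipient skin (log2, mean ± SE). In B6 graft CD49a+ cells the change was 3.64 ± 0.84 (adjusted p = 0.00605), and in B6 recipient skin it was 2.55 ± 0.84 (adjusted p = 0.0261). The last of these calls was lost without either B6 recipient library 1 or 3 (adjusted p = 0.127 and 0.104) or B6 spleen library 1 or 3 (0.0791 and 0.0715), and the other 4 were kept without any 1 library.

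Ms4a7, a membrane gene of macrophages, had a signal of 24.4, 40.2 and 129.5 in F1 graft CD49b+ cells, 81.2, 88.6 and 128 in F1 graft CD49a+ cells and 46.8, 40.1 and 4.01 in F1 recipient skin, against 4.37, 2.38 and 3.8005 in F1 spleen. For B6, the values were 44.6, 10.2 and 21.97 in graft CD49b+ cells, 54.3, 11.5 and 79.9 in graft CD49a+ cells and 194, 16.5 and 62.95 in recipient skin. They stood against 1.56, 5.09 and 1.69 in B6 spleen. It reached 10 in 17 of 18 skin libraries and in 0 of 12 circulating ones, with the exception in F1 recipient skin library 3. It rose by 4.47 ± 0.89 (adjusted p = 0.00114) in F1 graft CD49a+ cells and by 4.12 ± 0.89 (adjusted p = 0.00198) in B6 recipient skin, and both calls held without any 1 library. In F1 graft CD49b+ cells (3.54 ± 0.89, adjusted p = 0.0115) the call was lost without library 3 (adjusted p = 0.0659). In B6 graft CD49a+ cells (3.46 ± 0.89, adjusted p = 0.0107) it was lost without library 1 or 3 (0.0546 and 0.0753).

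Mrc1 (CD206), the mannose receptor of tissue macrophages, was at 115, 60.4 and 16.9 in F1 graft CD49a+ cells, against 0, 0 and 3.05 in F1 spleen (4.98 ± 0.95, adjusted p = 0.000793). In B6 it was at 31.6, 3.02 and 21.3 in graft CD49a+ cells and 18.002, 8.73 and 46.2 in recipient skin, against 0, 0.301 and 1.67 in spleen. The B6 changes were 3.24 ± 0.95 (adjusted p = 0.0222) in graft CD49a+ cells, a call lost without graft library 1 (0.121) or 3 (0.0982) or spleen library 1 (0.0869) or 2 (0.0652), and 3.76 ± 0.95 (adjusted p = 0.00566) in recipient skin. F1 graft CD49b+ cells had 6.27, 14.9 and 9.02, and F1 recipient skin 20.5, 16.4 and 1.33, without a call. In B6 Mrc1 was above spleen in every skin library of the CD49a+ groups.

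Complement C1q was found mainly in graft libraries. C1qa, C1qb and C1qc, the 3 chains of C1q, lie side by side on chromosome 4 (136880129 to 136898803, minus strand). C1qb had a signal of 2.66, 41.9 and 0 in F1 graft CD49b+ cells, 43.4, 81.3 and 7.997 in F1 graft CD49a+ cells and 0, 0 and 0 in F1 recipient skin, and was listed at 0 in all 3 F1 spleen libraries. B6 graft libraries showed 27.9, 0 and 1.35 in CD49b+ cells and 87.5, 0 and 37.4 in CD49a+ cells. Recipient skin in B6 showed 0, 4.89 and 4.46, against 0.474, 1.44 and 0.581 in spleen. All 6 libraries with C1qb at 10 or more came from grafts and none from recipient skin, and the same 6 held C1qa at 10 or more. In these 6 the ratio of C1qb to C1qa ran only from 1.28 to 2.39. C1qa was at 33.9, 49.2 and 8.21 in F1 graft CD49a+ cells, against 0.719, 0 and 0 in F1 spleen, and at 52.7, 0 and 28.2 in B6 graft CD49a+ cells, against 0, 0 and 0 in B6 spleen. In the remaining groups C1qa was at 0, 24.97 and 1.47 in F1 graft CD49b+ cells, 0, 0 and 0 in F1 recipient skin, 11.7, 0.7599 and 1.29 in B6 graft CD49b+ cells and 0, 0 and 0 in B6 recipient skin. C1qc was at 0, 11.3 and 1.19 in F1 graft CD49b+ cells, 7.003, 45.3 and 2.92 in F1 graft CD49a+ cells and 1.56, 1.55 and 0 in F1 recipient skin, and was listed at 0 in all 3 F1 spleen libraries. In the B6 model, graft CD49b+ cells had 9.51, 0 and 0 and graft CD49a+ cells 10.1, 0 and 5.29. Recipient skin of this model had 0, 0 and 0, against 0.414, 0.452 and 0 in spleen.

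In F1 graft CD49a+ cells all 3 chains were called, with changes of 4.40 ± 1.13 (adjusted p = 0.00765) for C1qa, 5.002 ± 1.35 (adjusted p = 0.00975) for C1qb and 3.50 ± 1.03 (adjusted p = 0.0163) for C1qc, where the size depends on the added 1 because spleen was at or near 0. Without F1 graft CD49a+ library 2 the calls of C1qb (adjusted p = 0.0501) and C1qc (0.11) were lost. C1qa also passed in B6 graft CD49a+ cells (3.54 ± 1.13, adjusted p = 0.0348), but not without library 1 (0.209) or 3 (0.163) or any 1 spleen library (up to 0.088). The test of graft CD49a+ against recipient skin in F1 gave no call for C1qa (4.66, adjusted p = 0.125), so a difference between these sites was not shown.

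Lyz2 and Cd14 peaked in 1 recipient skin library. Lyz2, lysozyme of macrophages and neutrophils and the macrophage member with the highest mean, was at 10.98, 112 and 129.8 in F1 graft CD49b+ cells and 179.5, 2109.8 and 87.5 in F1 graft CD49a+ cells. F1 recipient skin had 5604, 8.42 and 1.699, against 3.27, 0 and 1.41 in F1 spleen. The B6 grafts had 175, 172 and 0 in CD49b+ cells and 770.0, 598 and 101 in CD49a+ cells. B6 recipient skin was at 0, 75.6 and 0, against 88.2, 20.2 and 91.8 in B6 spleen, so B6 recipient skin and B6 graft CD49b+ cells overlapped with B6 spleen, and all 3 B6 graft CD49a+ libraries lay above it. F1 recipient skin library 1 alone held 54.2 percent of the Lyz2 signal of all 30 libraries, while C1qa and C1qb were listed at 0 there. Lyz2 was called in F1 graft CD49a+ cells (7.21 ± 2.10, adjusted p = 0.0156), and not without graft library 2 (adjusted p = 0.0822) or spleen library 2 (0.0537).

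Cd14, the lipopolysaccharide co-receptor of monocytes and macrophages, was at 16.1, 72.9 and 13.8 in F1 graft CD49b+ cells, 82.1, 94.8 and 69.2 in F1 graft CD49a+ cells and 1120.1, 0 and 63.8 in F1 recipient skin, against 0, 0 and 0.745 in F1 spleen. For B6, the values were 15.1, 32.05 and 1.34 in graft CD49b+ cells, 49.8, 83.3 and 7.82 in graft CD49a+ cells and 0, 0 and 0 in recipient skin. They stood against 0.812, 0 and 0.515 in B6 spleen. It rose by 6.10 ± 1.43 (adjusted p = 0.00418) in F1 graft CD49a+ cells, a call kept without any 1 library. The calls in F1 graft CD49b+ cells (4.46 ± 1.43, adjusted p = 0.0399), F1 recipient skin (5.12 ± 1.43, adjusted p = 0.0166) and B6 graft CD49a+ cells (4.58 ± 1.43, adjusted p = 0.0305) were lost in 6, 3 and 5 of the 6 fits that left out 1 library, with adjusted p up to 0.178 (without F1 graft CD49b+ library 2), 0.176 (without F1 recipient library 1) and 0.106 (without B6 graft CD49a+ library 1).

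Cybb, the gp91phox subunit of the phagocyte oxidase (chromosome X, 9435252 to 9487771), was at 22.4, 57.9 and 17.3 in F1 graft CD49b+ cells and 47.5, 124 and 69.2 in F1 graft CD49a+ cells. F1 recipient skin had 162, 54.2 and 4.07, against 0.216, 0 and 0.921 in F1 spleen. F1 blood library 1, at 107, was as high as skin. B6 graft libraries showed 19.2, 27.7 and 17.4 in CD49b+ cells and 65.6, 64.5 and 16.8 in CD49a+ cells. Recipient skin in B6 showed 31.2, 6.02 and 23.4, against 21.6, 14.7 and 20.3 in spleen, and gave no call. The F1 changes were 5.82 ± 1.14 (adjusted p = 0.000963) in graft CD49a+ cells, 4.47 ± 1.14 (adjusted p = 0.0126) in graft CD49b+ cells (adjusted p = 0.0737 without library 2) and 4.75 ± 1.14 (adjusted p = 0.00664) in recipient skin (0.0583 without library 1).

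Apoe, the lipid carrier apolipoprotein E, was highest in B6 grafts, at 2060.2, 2.62 and 2070.4 in graft CD49a+ cells, and stood at 389, 48.5 and 478 in B6 recipient skin, against 2.85, 11.8 and 9.55 in B6 spleen. B6 graft CD49b+ cells had 225, 101 and 312. In F1 it was at 10.6, 205 and 41.99 in graft CD49b+ cells, 125, 519.5 and 33.4 in graft CD49a+ cells and 231, 521 and 2.96 in recipient skin, against 2.16, 0.832 and 2.98 in spleen. It passed in F1 graft CD49a+ cells (5.52 ± 1.74, adjusted p = 0.0239) and B6 recipient skin (4.71 ± 1.74, adjusted p = 0.0438), and both calls were lost in most fits without 1 library (4 and 5 of 6; adjusted p up to 0.105 without F1 graft CD49a+ library 2 and 0.144 without B6 recipient library 3). Apoe is also made outside macrophages, and in B6 graft CD49a+ libraries 1 and 3, the highest for Apoe, the summed signal of 10 fibroblast markers was 4872 and 1418 and that of 10 keratinocyte markers 3552 and 1356, against 24.0 and 45.7 in library 2. The part of these cells in the Apoe signal was not tested.

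The 5 remaining macrophage members gave 1 call. Cd163, the haemoglobin scavenger receptor, was at 10.5, 1395 and 14.1 in B6 graft CD49a+ cells, against 3.49, 3.96 and 1.702 in B6 spleen (3.99 ± 1.11, adjusted p = 0.0166), with 84.1 percent of its signal over all libraries in B6 graft CD49a+ library 2. Without that library its change was 1.75 (adjusted p = 0.106), and without B6 spleen library 3 adjusted p was 0.0662. Csf1r, the receptor for the macrophage growth factor CSF1, was at 355 in F1 recipient skin library 1 and at 364 in F1 spleen library 2, and in that spleen library Lyz2 and Cd14 were listed at 0. Cd68 ranged from 2.35 to 127 in skin and from 1.91 to 11.4 in circulating libraries, and Ctss, cathepsin S, from 3.22 to 481 and from 18.5 to 69.1. Fcgr1 (CD64) reached 10 in F1 recipient skin library 1 (76.7) and B6 recipient skin library 1 (15.4).

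**Figure D3:**
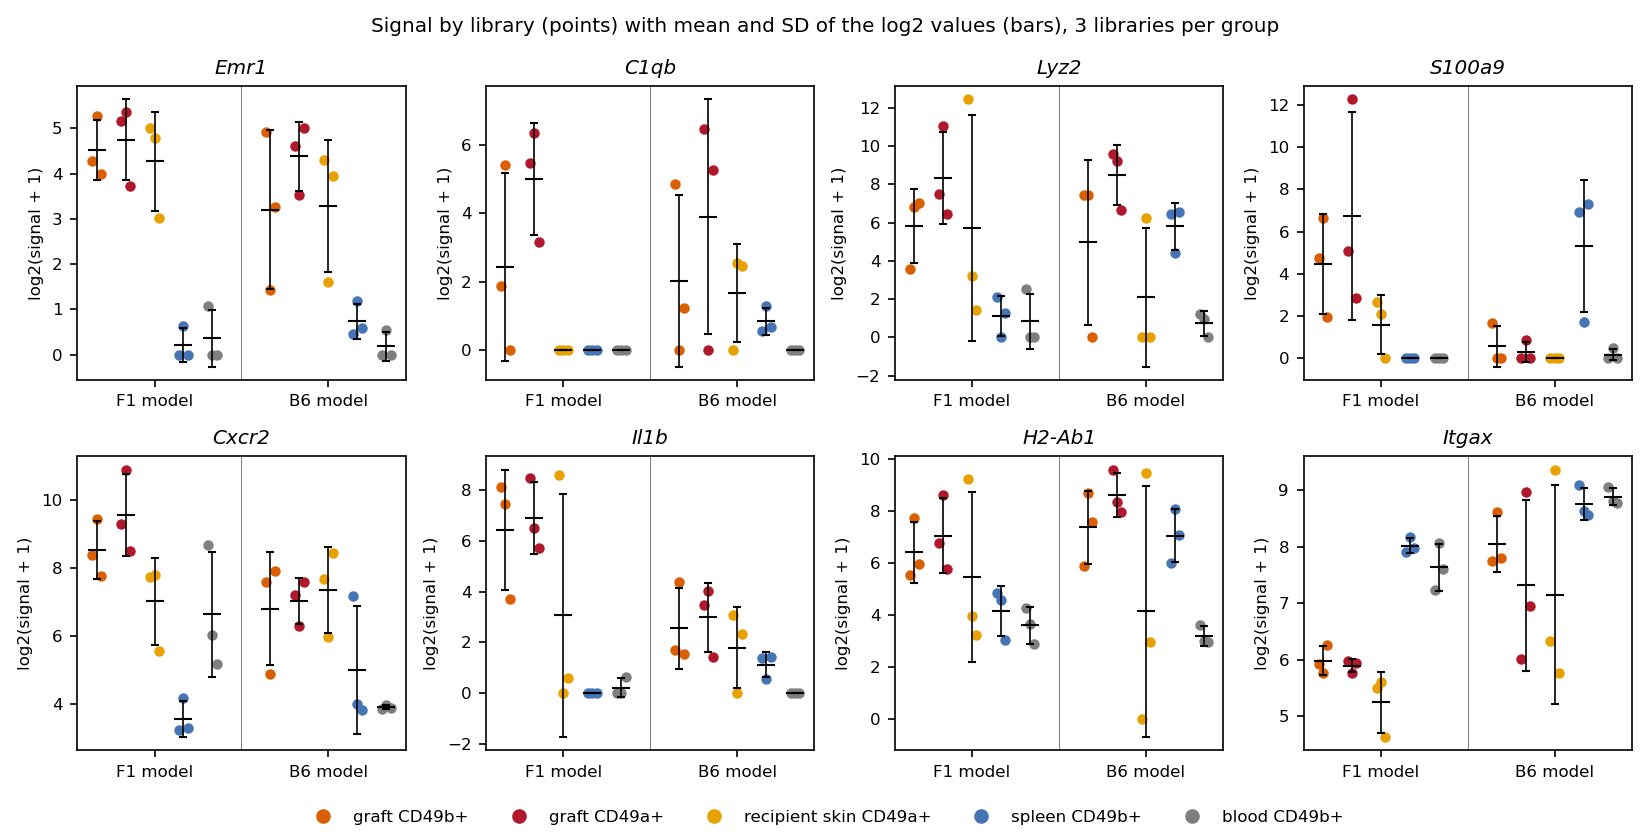
Signal of 8 members in each library (points), as log2 of the signal plus 1, with the mean and SD of the log2 values (bars) for 3 libraries per group, F1 model left and B6 model right in each panel. Emr1 separates all 18 skin libraries from all 12 circulating ones, whereas S100a9 is high in 1 F1 graft CD49a+ library and in 2 B6 spleen libraries.

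Among the neutrophil members, Cxcr2 and the S100 pair behaved differently. Cxcr2 (chromosome 1, 74153989 to 74161246), the chemokine receptor of neutrophils, had the highest mean signal of the neutrophil members. It was at 333, 693 and 215 in F1 graft CD49b+ cells, 627, 1878 and 356 in F1 graft CD49a+ cells and 213, 218 and 45.7 in F1 recipient skin, against 8.36, 17.1 and 8.69 in F1 spleen. In the B6 model, graft CD49b+ cells had 191, 28.6 and 239 and graft CD49a+ cells 147, 76.5 and 192. Recipient skin of this model had 201, 61.5 and 341, against 142, 14.9 and 12.996 in spleen. The F1 groups did not overlap with F1 spleen, but F1 blood, at 409, 64.4 and 35.1, overlapped with skin. Cxcr2 rose by 4.96 ± 0.93 (adjusted p = 0.00149) in F1 graft CD49b+ cells, 5.99 ± 0.93 (adjusted p = 0.000171) in F1 graft CD49a+ cells and 3.46 ± 0.93 (adjusted p = 0.0131) in F1 recipient skin. Both graft calls held without any 1 library, and the recipient call was lost without recipient library 1 or 2 (adjusted p = 0.0651 and 0.0698) or spleen library 1 (0.0502).

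S100a8 and S100a9 lie close together on chromosome 3 (90668978 to 90670035 and 90692632 to 90695721) and encode the calprotectin pair that fills the neutrophil cytosol. S100a9 was at 26.2, 99.3 and 2.91 in F1 graft CD49b+ cells, 32.5, 4925 and 6.26 in F1 graft CD49a+ cells and 5.35, 3.28 and 0 in F1 recipient skin, and was listed at 0 in all 6 F1 spleen and blood libraries. The B6 grafts had 2.15, 0 and 0 in CD49b+ cells and 0, 0.782 and 0 in CD49a+ cells. B6 recipient skin was at 0, 0 and 0, against 119, 2.23 and 155 in B6 spleen. S100a8 was at 14.3, 41.6 and 0 in F1 graft CD49b+ cells, 31.1, 3721 and 3.62 in F1 graft CD49a+ cells and 1.37, 1.21 and 0.342 in F1 recipient skin, and was listed at 0 in F1 spleen. For B6, the values were 0, 0.571 and 0 in graft CD49b+ cells, 0, 0 and 1.59 in graft CD49a+ cells and 0, 0 and 2.15 in recipient skin. They stood against 163, 2.102 and 193 in B6 spleen. Both reached 10 in the same 6 of 30 libraries, with a ratio of S100a9 to S100a8 between 0.727 and 2.39. Cxcr2 reached 10 in these 6 and in 22 others, 14 of them from skin.

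S100a9 and S100a8 rose in F1 graft CD49a+ cells (6.73 ± 1.55, adjusted p = 0.00362 and 6.36 ± 1.60, adjusted p = 0.00657), where 91.5 and 89.1 percent of their signal over all libraries came from library 2. Without it the changes were 3.96 (adjusted p = 0.0369) and 3.61 (0.0693). In B6 both fell, with changes for S100a9 and S100a8 of -5.02 ± 1.55 (adjusted p = 0.0288) and -5.07 ± 1.60 (adjusted p = 0.0319) in graft CD49a+ cells and of -5.29 ± 1.55 (adjusted p = 0.0135) and -4.98 ± 1.60 (adjusted p = 0.0222) in recipient skin. All 4 calls were lost without B6 spleen library 1 or 3. Without library 1 adjusted p was 0.124, 0.139, 0.0693 and 0.104, and without library 3 it was 0.136, 0.145, 0.0763 and 0.111. The graft calls were also lost without graft CD49a+ library 1 (0.0898 and 0.103) or 3 (0.0934 and 0.0667), and for S100a8 without library 2 (0.0514). The S100a8 call in recipient skin was lost without recipient library 1 (0.0756). With B6 blood in place of spleen, the changes of S100a9 and S100a8 in graft CD49a+ cells were 0.12 and 0.28, no longer negative.

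Genes of immature neutrophil granules were high in 3 of these 6 libraries. In F1 graft CD49a+ library 2, Ngp (neutrophilic granule protein) was at 2258, Ltf (lactoferrin) at 1150.5, Camp (cathelicidin) at 1149.8, Lcn2 at 692 and Elane (neutrophil elastase) at 426, and Hbb-bs (a beta globin chain of red cells) was at 11464. In F1 graft CD49a+ libraries 1 and 3, Ngp was at 0 and 2.79, and Camp, Ltf and Elane were listed at 0. B6 spleen libraries 1 and 3 held Ngp at 114 and 142, Ltf at 86.6 and 65.9 and Camp at 80.8 and 86.5, and library 2 had all 3 listed at 0. These genes were chosen for naming after their values were seen. F1 graft CD49b+ libraries 1 and 2, with S100a9 at 26.2 and 99.3, had Ngp at 2.27 and 0 and Camp listed at 0, so the S100 pair also occurred where these granule genes were near 0.

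Il1b and Cxcl2, an inflammatory cytokine and a chemokine that binds CXCR2, were highest in other libraries than the S100 pair. Il1b was at 277, 172 and 12.2 in F1 graft CD49b+ cells, 355, 90.03 and 51.6 in F1 graft CD49a+ cells and 381, 0 and 0.5202 in F1 recipient skin, and was listed at 0 in all 3 F1 spleen libraries. Cxcl2 was at 271, 118 and 7.696 in F1 graft CD49b+ cells, 244, 42.997 and 30.4 in F1 graft CD49a+ cells and 147, 3.08 and 0.851 in F1 recipient skin, and was likewise listed at 0 in F1 spleen. In B6 Il1b was at 2.27, 19.9 and 1.91 in graft CD49b+ cells, 10.1, 15.3 and 1.71 in graft CD49a+ cells and 7.33, 0 and 3.99 in recipient skin, against 1.61, 0.477 and 1.6997 in spleen. Cxcl2 in B6 grafts was at 6.398, 2.401 and 3.98 in the CD49b+ cells and 55.6, 1.64 and 5.44 in the CD49a+ cells. It was listed at 0 in all 3 libraries of B6 recipient skin, against 0.381, 0 and 0 in B6 spleen. Il1b thus reached 10 in all 6 F1 graft libraries and Cxcl2 in 5 of them, and in the 9 B6 skin libraries 3 and 1 did. The highest Il1b levels within grafts thus stood in libraries 1 of both F1 graft groups, not in the S100-rich library 2 of the CD49a+ cells. Il1b rose by 6.42 ± 1.46 (adjusted p = 0.00595) in F1 graft CD49b+ cells and 6.90 ± 1.46 (adjusted p = 0.00195) in F1 graft CD49a+ cells, and Cxcl2 by 6.03 ± 1.25 (adjusted p = 0.00314) and 6.12 ± 1.25 (adjusted p = 0.00149), and all 4 calls held without any 1 library. In F1 recipient skin neither passed without a block for library number (3.06 ± 1.46, adjusted p = 0.146 for Il1b and 3.38 ± 1.25, adjusted p = 0.0637 for Cxcl2). High values stood in library 1 alone.

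Il1r2, the decoy receptor for interleukin-1, was at 8.59, 19.8 and 10.2 in F1 graft CD49b+ cells and 14.2, 18.6 and 4.64 in F1 graft CD49a+ cells, with 8.68, 12.04 and 0 in F1 recipient skin, and was listed at 0 in F1 spleen. The changes were 3.71 ± 1.02 (adjusted p = 0.0192) in graft CD49b+ cells and 3.57 ± 1.02 (adjusted p = 0.0137) in graft CD49a+ cells. B6 graft libraries showed 12.2, 7.41 and 3.03 in CD49b+ cells and 6.31, 5.65 and 12.9 in CD49a+ cells. Recipient skin in B6 showed 0, 0 and 26.4, against 0, 0.2196 and 0.374 in spleen. Without library 2 of the graft group compared, adjusted p was 0.0911 and 0.0555, and the CD49b+ call was also lost without any 1 spleen library (up to 0.0592). Clec4d, a C-type lectin of monocytes and neutrophils, was at 8.31, 11.9 and 8.18 in F1 graft CD49b+ cells, 18.7, 36.9 and 26.1 in F1 graft CD49a+ cells and 52.2, 7.82 and 0 in F1 recipient skin, and was listed at 0 in F1 spleen. In the B6 model, graft CD49b+ cells had 0, 0.589 and 0 and graft CD49a+ cells 6.796, 0.826 and 3.902. Recipient skin of this model had 0, 2.73 and 9.31, against 0.366, 0.407 and 0 in spleen. The F1 change in graft CD49a+ cells (4.77 ± 0.97, adjusted p = 0.0014) held without any 1 library. Those in graft CD49b+ cells (3.37 ± 0.97, adjusted p = 0.0242) and recipient skin (2.96 ± 0.97, adjusted p = 0.0376) were lost in 6 and 5 of 6 such fits (up to 0.0925 without graft CD49b+ library 2 and 0.293 without recipient library 1).

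Arg1, the arginase of tissue-repair macrophages and of some neutrophils, was at 4.88, 8.93 and 1.404 in F1 graft CD49b+ cells and 166, 32.4 and 24.3 in F1 graft CD49a+ cells. F1 recipient skin had 13.3, 3.399 and 48.5, against 0.546, 0.571 and 0 in F1 spleen. It rose by 5.28 ± 0.93 (adjusted p = 0.000434) in graft CD49a+ cells and by 3.44 ± 0.93 (adjusted p = 0.0134) in recipient skin (adjusted p = 0.0555 without spleen library 3). The B6 grafts had 0, 6.58 and 8.97 in CD49b+ cells and 7.12, 3.34 and 10.3 in CD49a+ cells. B6 recipient skin was at 0, 0 and 0, against 0.747, 0.822 and 0.969 in B6 spleen. It was highest in F1 graft CD49a+ library 1 and in F1 recipient skin library 3, where Lyz2 was at only 1.699. Csf3r, the G-CSF receptor of the granulocyte line, was at 7.801, 30.98 and 6.81 in F1 graft CD49b+ cells, 27.4, 78.3 and 46.5 in F1 graft CD49a+ cells and 108, 7.72 and 10.6 in F1 recipient skin, against 8.57, 1.73 and 4.21 in F1 spleen. It rose in graft CD49a+ cells (3.21 ± 0.92, adjusted p = 0.0142), but not without graft library 2 (0.0612) or spleen library 2 (0.0685). For B6, the values were 15.3, 1.202 and 2.46 in graft CD49b+ cells, 15.4, 7.87 and 17.1 in graft CD49a+ cells and 41.5, 3.37 and 18.8 in recipient skin. They stood against 5.91, 4.45 and 4.71 in B6 spleen. Retnlg and Mmp9, 2 genes of mature neutrophils, peaked in F1 graft CD49a+ library 2, at 105 and 107. Trem1, an activating receptor of neutrophils and monocytes, was instead highest outside skin, at 157 in F1 spleen library 2 and 334 in F1 blood library 2, and S100a8 and S100a9 were listed at 0 in both libraries.

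**Figure D4:**
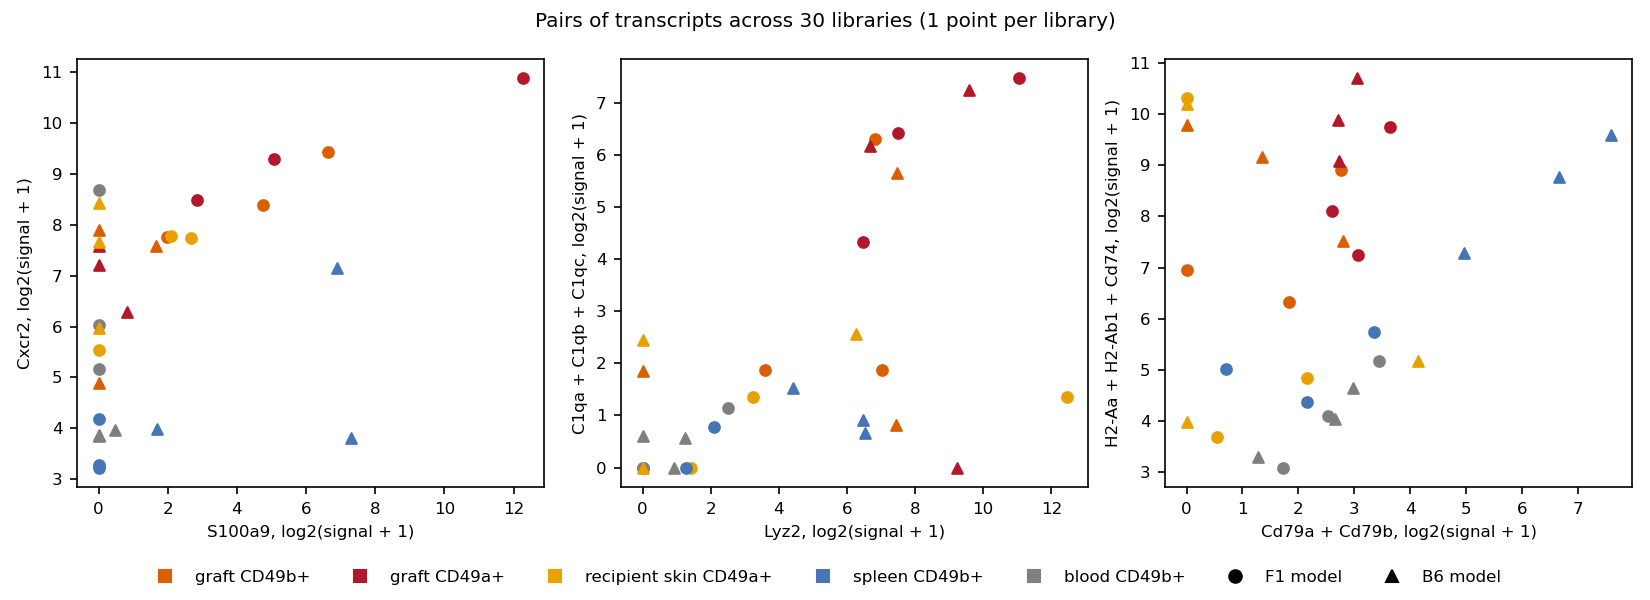
Cxcr2 against S100a9 (left), the summed C1q chains against Lyz2 (middle) and the summed H2-Aa, H2-Ab1 and Cd74 against the summed B cell genes Cd79a and Cd79b (right), 1 point per library, as log2 of the signal plus 1. Cxcr2 is high in many skin libraries with S100a9 at or near 0, the library with the most Lyz2 (5604) has almost no C1q, and B6 spleen libraries stand to the right of skin libraries with similar MHC-II signal.

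MHC class II transcripts were low in F1 spleen and in blood of both models, and present in most graft libraries and in B6 spleen. H2-Aa and H2-Ab1 (chromosome 17, 34282744 to 34287823 and 34257689 to 34269419) encode the alpha and beta chains of I-A. H2-Ab1 was at 44.8, 209.7 and 60.9 in F1 graft CD49b+ cells and 108, 383 and 53.6 in F1 graft CD49a+ cells. F1 recipient skin had 588, 14.4 and 8.32, against 27.6, 22.8 and 7.24 in F1 spleen. In B6 it was at 57.9, 404 and 187 in graft CD49b+ cells, 756, 319.5 and 243 in graft CD49a+ cells and 0, 693 and 6.72 in recipient skin, against 62.6, 264 and 133 in spleen and 11.2, 6.87 and 6.68 in blood. In recipient skin 1 library per model was thus far above spleen, library 1 in F1 and library 2 in B6, and the other 4 were at 14.4 or below. H2-Aa was at 7.4003, 116 and 25.9 in F1 graft CD49b+ cells, 74.98, 131 and 29.4 in F1 graft CD49a+ cells and 267, 5.91 and 3.06 in F1 recipient skin, against 6.54, 2.01 and 3.37 in F1 spleen. Cd74, the invariant chain, was at 91.7, 342 and 67.9 in F1 graft CD49a+ cells, against 18.2, 6.65 and 9.27 in F1 spleen, and at 512, 300.5 and 194 in B6 graft CD49a+ cells, against 69.1, 338 and 151 in B6 spleen.

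Of these 3, H2-Aa alone was called, in F1 graft CD49a+ cells (3.86 ± 1.38, adjusted p = 0.0445), and the call was lost in all 6 fits that left out 1 library (adjusted p from 0.0629 to 0.131, the highest without graft library 2). In the same group the fitted differences of H2-Ab1 (2.89 ± 1.51, adjusted p = 0.162) and Cd74 (3.50 ± 1.37, adjusted p = 0.0636) did not pass without a block for library number. Ciita, the master regulator of class II genes, was low everywhere, with the highest signals at 43.2 in B6 recipient skin library 2 and 25.2 in B6 spleen library 2, and gave no call. F1 mice carry Balb/c alleles of the H2 genes, and an effect of allele on read assignment was not tested.

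In B6 spleen class II transcripts stood beside those of B cells, and in skin H2-Ab1 mostly stood without Cd79a. Cd79a, part of the B cell receptor, was at 15.98, 104 and 44.03 in B6 spleen. In the 18 skin libraries Cd79a reached 10 in 1, B6 recipient skin library 1 (16.5), where H2-Ab1 was listed at 0, while H2-Ab1 reached 10 in 15 of them. Of 9 B cell markers, 1 to 4 reached 10 in skin libraries and 4 to 6 in B6 spleen libraries. Their summed signal was 204 to 1097 in B6 spleen and 33.5 to 356 in skin, so the sums overlapped. It was 101 to 356 in B6 recipient skin, 142 to 260 in B6 graft CD49b+ cells and 90.1 to 205 in B6 graft CD49a+ cells. By Cd79a, the B6 comparisons of class II genes set skin libraries against spleen libraries with B cell transcripts. The test of B6 spleen against B6 blood gave no call among the members (0.00623 percent of all genes, 8 members higher and 0 lower at an unadjusted p under 0.05), with H2-Aa at 4.92 and adjusted p = 1. At that unadjusted level 1.43 percent of all genes passed.

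Itgax went the other way. It encodes CD11c, and its signal was 59.9, 53.2 and 75.7 in F1 graft CD49b+ cells and 62.04, 53.7 and 60.2 in F1 graft CD49a+ cells. F1 recipient skin had 44.5, 47.9 and 23.8, against 239, 288 and 250.1 in F1 spleen. All 9 F1 skin libraries lay below all 6 F1 circulating ones. It fell in all 3 F1 skin groups, with changes of -2.03 ± 0.65 (adjusted p = 0.0399) in graft CD49b+ cells, -2.12 ± 0.65 (adjusted p = 0.0202) in graft CD49a+ cells and -2.77 ± 0.65 (adjusted p = 0.006) in recipient skin. The calls in the graft groups were lost in 6 and 4 of 6 fits without 1 library (adjusted p up to 0.129 without graft CD49b+ library 2 and 0.0606 without spleen library 2), and the recipient call in none. On the pan-leukocyte scale the falls were smaller and none passed (-0.91, -0.50 and -0.43; adjusted p = 0.172, 0.407 and 0.414). B6 graft libraries showed 213, 392 and 221 in CD49b+ cells and 63.8, 499 and 123 in CD49a+ cells. Recipient skin in B6 showed 79.9, 654 and 53.3, against 542, 397 and 377 in spleen, with no call, and F1 and B6 were not shown to differ. Library 2 of each B6 skin group was the highest of its group, and these 3 libraries also had the pan-leukocyte level nearest to that of circulating cells, 0.34, 0.51 and 0.52 log2 units below it.

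Read by library, the members occurred in different mixtures. F1 graft CD49a+ library 2 held all 12 neutrophil members at 10 or more and 14 of 15 macrophage members, with a neutrophil sum of 11057. F1 recipient skin library 1 held Lyz2, Cd14, Csf1r, Fcgr1, Il1b and class II genes with little S100a9 (5.35) and no C1qa or C1qb. F1 graft CD49a+ library 1 and CD49b+ library 1 had the most Il1b and Cxcl2 among grafts, and B6 graft CD49a+ libraries 1 and 3 had C1q and Apoe with S100a9 listed at 0. F1 recipient skin library 3, with Emr1 at 7.104, had 2 macrophage members at 10 or more. In the 6 blood libraries 25 of the 32 analysed members stayed under 10, with the highest at 8.57 (Cd68), and the other 7, at 10 or more in at least 1 blood library, were Ctss, Cybb, Cxcr2, Trem1, Cd74, H2-Ab1 and Itgax.

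Comparisons between skin groups gave no call among the 30 tested members by limma. For graft CD49a+ against graft CD49b+ cells, 27 members had a positive change in F1 (median 1.30; all genes called, 0.00623 percent) and 27 in B6 (median 0.87; 0.0125 percent), with 3 and 1 higher and none lower at an unadjusted p under 0.05. At that level 4.59 percent of all genes passed in F1 and 6.49 percent in B6, and the B6 member count lay below that share. The median change of all genes was 0.11 in F1 and 0.09 in B6. For graft CD49a+ cells against recipient skin, 29 were positive in F1 (median 1.82; 0.0249 percent) and 22 in B6 (median 1.23; 0.224 percent), with 11 and 9 higher and none lower at an unadjusted p under 0.05. Of all genes, 8.13 percent in F1 and 12.2 percent in B6 passed at that level, with median changes of 0.17 and 0.06. The members with the smallest p in these tests were Arg1 (3.32 ± 0.93, adjusted p = 0.58) and C1qa (4.66 ± 1.13, 0.125) in F1, and Cd163 (3.27 ± 1.11, 0.49) and Cd14 (5.07 ± 1.43, 0.135) in B6. Same-numbered libraries of B6 graft CD49a+ cells and B6 recipient skin deviated together, and with the library number of the B6 skin groups as a block, a setting chosen after seeing the data, 1.1 percent of all genes were called between these groups. No member passed there by limma either, with 10 higher and 0 lower at an unadjusted p under 0.05 and the smallest p for Ctss (2.81 ± 0.77, adjusted p = 0.069). F1 spleen against F1 blood also gave no call (0.00623 percent of all genes). There 0 members were higher and 2 lower at an unadjusted p under 0.05, a level that 2.95 percent of all genes passed.

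The models were compared by testing the difference of their changes, F1 minus B6, and no member passed by limma in the fit without a block for library number. In graft CD49a+ cells against spleen, S100a9 had a difference of 11.75 ± 2.19 (log2; adjusted p = 0.0581; all genes called, 0.00623 percent), made up of a change of 6.73 in F1 and -5.02 in B6. Without B6 spleen library 2 or F1 graft CD49a+ library 3, 2 members passed in this test, and without B6 graft CD49a+ library 2, 1 did. In graft CD49b+ cells (0 percent of all genes) the smallest p was that of S100a9 (9.20 ± 2.19, adjusted p = 0.552), in recipient skin (0.0125 percent) that of Arg1 (4.32 ± 1.31, 0.489), and for spleen against blood (0.0125 percent) that of Cybb (-6.58 ± 1.61, 0.899). At an unadjusted p under 0.05, 8 members had a positive difference in each of the 3 skin tests and 5 a negative one for spleen against blood. Of all genes, 4.06 percent passed at that level in graft CD49a+ cells and 3.19 percent in graft CD49b+ cells. It was 6.37 percent in recipient skin and 2.09 percent for spleen against blood. More calls in F1 than in B6 are thus not shown to be a difference between the models.

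Further genes of the same cell types were read against the share of all genes called. Their lists were chosen with earlier results of these data known. A gene that passed the filter only through its high libraries had to differ, so the shares below describe the lists. Of 29 tested further macrophage and monocyte genes, 19 were higher and 0 lower in F1 graft CD49a+ cells than in spleen, 10 and 0 in F1 graft CD49b+ cells, and 11 and 2 in F1 recipient skin. The B6 counts were 8 and 0 for graft CD49a+ cells, 9 and 1 for recipient skin and 2 and 0 for graft CD49b+ cells. The share of the list called was 65.5 percent in F1 graft CD49a+ cells, 34.5 percent in F1 graft CD49b+ cells and 44.8 percent in F1 recipient skin, against 22.7, 12.2 and 15.7 percent of all genes. In B6 it was 27.6 percent in graft CD49a+ cells, 34.5 percent in recipient skin and 6.90 percent in graft CD49b+ cells, against 16.3, 28.8 and 4.07 percent of all genes, so the shares in B6 recipient skin and B6 graft CD49b+ cells lay near the background. Mertk, a receptor for apoptotic cells, rose by 3.90 ± 0.72 (adjusted p = 0.000595) in F1 graft CD49a+ cells and by 3.97 ± 0.72 (adjusted p = 0.000517) in B6 recipient skin. Trem2, a lipid-sensing receptor of tissue macrophages, rose by 4.66 ± 1.03 (adjusted p = 0.00269) in F1 graft CD49a+ cells, and Mpeg1, the pore-forming perforin-2 of macrophages, by 4.82 ± 1.04 (adjusted p = 0.00228). Ly6c2, a monocyte gene also carried by lymphocytes, fell in B6 recipient skin (-4.98 ± 1.06, adjusted p = 0.00179).

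Of 23 further neutrophil and inflammatory genes, 10 were higher and 0 lower in F1 graft CD49a+ cells, 4 and 0 in F1 graft CD49b+ cells and 4 and 1 in F1 recipient skin. The B6 counts were 2 and 1 for graft CD49a+ cells, 2 and 2 for recipient skin and 2 and 0 for graft CD49b+ cells. The F1 shares of this list, 43.5, 17.4 and 21.7 percent, stood against the 22.7, 12.2 and 15.7 percent of all genes given above. In B6 the shares were 13.04 percent in graft CD49a+ cells and 17.4 percent in recipient skin, below the 16.3 and 28.8 percent of all genes, and 8.70 percent in graft CD49b+ cells, against 4.07 percent. Irg1 (Acod1), the itaconate-making enzyme of activated myeloid cells, was at 207, 130.3 and 16.6 in F1 graft CD49b+ cells and 427, 90.2 and 46.3 in F1 graft CD49a+ cells, against 0.553, 0 and 0 in F1 spleen (6.08 ± 1.01, adjusted p = 0.00076 and 6.73 ± 1.01, adjusted p = 0.000141). Il1rn, the interleukin-1 receptor antagonist, rose by 5.63 ± 1.07 (adjusted p = 0.000785) in F1 graft CD49a+ cells and by 3.89 ± 1.07 (adjusted p = 0.016) in B6 graft CD49a+ cells. G0s2, a lipase inhibitor, fell in F1 recipient skin (-4.23 ± 1.00, adjusted p = 0.00613) and B6 recipient skin (-3.74 ± 1.00, adjusted p = 0.00809).

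Of 19 further antigen presentation and dendritic cell genes, 6 were higher and 0 lower in F1 graft CD49a+ cells, 5 and 1 in F1 graft CD49b+ cells and 6 and 1 in F1 recipient skin. The B6 counts were 4 and 1 for graft CD49a+ cells, 6 and 1 for recipient skin and 1 and 0 for graft CD49b+ cells. The F1 shares were 31.6 percent in graft CD49a+ cells, 31.6 percent in graft CD49b+ cells and 36.8 percent in recipient skin, against 22.7, 12.2 and 15.7 percent of all genes. The B6 shares were 26.3, 36.8 and 5.26 percent in graft CD49a+ cells, recipient skin and graft CD49b+ cells, against 16.3, 28.8 and 4.07 percent. Xcr1, the chemokine receptor of cross-presenting dendritic cells, rose by 4.02 ± 0.73 (adjusted p = 0.000535) in F1 graft CD49a+ cells and by 3.33 ± 0.73 (adjusted p = 0.00218) in B6 recipient skin. Cd40, a co-stimulatory receptor, rose by 5.51 ± 0.86 (adjusted p = 0.000181) in F1 graft CD49a+ cells and by 3.75 ± 0.86 (adjusted p = 0.00572) in B6 graft CD49a+ cells, and Cd83, a maturation marker of dendritic cells, by 4.93 ± 1.17 (adjusted p = 0.00638) in F1 recipient skin. H2-Oa, a class II editing factor, fell in F1 recipient skin (-4.17 ± 1.03, adjusted p = 0.00828).

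Markers of non-myeloid cells were also called in these comparisons, and their part in the results was not tested. The share of all genes called, against which each list is read, was 22.7 percent in F1 graft CD49a+ cells, 12.2 percent in F1 graft CD49b+ cells, 15.7 percent in F1 recipient skin, 16.3 percent in B6 graft CD49a+ cells, 28.8 percent in B6 recipient skin and 4.07 percent in B6 graft CD49b+ cells. Over 7 T cell markers tested, 2 (28.6 percent) were higher in each F1 skin group, and 1 (14.3 percent), 1 and 0 in B6 graft CD49a+ cells, recipient skin and graft CD49b+ cells, which is below the share of all genes in each B6 group. Of 7 tested keratinocyte markers, none was higher in either F1 graft group and 3 (42.9 percent) were in F1 recipient skin, and in B6 6 (85.7 percent) were higher in graft CD49a+ cells, 2 (28.6 percent) in recipient skin and 2 (28.6 percent) in graft CD49b+ cells. The keratinocyte share in B6 recipient skin and the T cell share in F1 graft CD49a+ cells lay near that of all genes. The summed signal of the 10 listed keratinocyte markers was 25.5 to 63.6 in F1 graft CD49a+ cells, 13.7 to 115 in F1 graft CD49b+ cells and 48.1 to 2038 in F1 recipient skin. It was 45.7 to 3552 in B6 graft CD49a+ cells, 36.1 to 493 in B6 recipient skin and 193 to 1031 in B6 graft CD49b+ cells, and at most 15.8 in the spleen libraries of either model. Of 10 fibroblast markers, 3 were higher in F1 graft CD49a+ cells, 1 in F1 graft CD49b+ cells, 2 in F1 recipient skin, 5 in B6 graft CD49a+ cells, 1 in B6 recipient skin and 2 in B6 graft CD49b+ cells. The share was below that of all genes in F1 graft CD49b+ cells and B6 recipient skin. Of 6 tested erythroid markers, 4 (66.7 percent) were higher in F1 graft CD49a+ cells and none in the other skin groups. The summed signal of the 7 listed erythroid markers in F1 graft CD49a+ cells ran from 17.8 to 41614, with a median of 323. The summed signal thus rested largely on 1 library. Of the markers called, Alas2 alone did not overlap with F1 spleen. Of 7 tested B cell markers, 2 (28.6 percent) were lower in B6 graft CD49a+ cells, 3 (42.9 percent) in B6 recipient skin, 2 in B6 graft CD49b+ cells and 1 (14.3 percent) in F1 recipient skin, and 1 was higher in F1 graft CD49a+ cells. Of 4 tested mast cell markers, 1 to 2 were higher and 1 lower in each B6 skin group, and in F1 1 was higher and 1 lower in graft CD49a+ cells and 1 lower in recipient skin. The lower marker was Cma1 each time. Its mean was 320 in B6 spleen and 186.8 in F1 spleen, where the means of Cpa3 and Ms4a2 were at most 3.223. Of 12 NK cell markers, 8 were lower in F1 graft CD49a+ cells, 4 in F1 graft CD49b+ cells, 11 in F1 recipient skin, 10 in B6 graft CD49a+ cells, 10 in B6 recipient skin and 1 in B6 graft CD49b+ cells, and none was higher; the shares ran from 33.3 to 91.7 percent in F1 and from 8.33 to 83.3 percent in B6.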

How the data were processed

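RNA sequencing libraries of sorted cells were quantified by the authors with Salmon on GRCm38 (mm10), per the submitters' processing notes, with versions not given in the sources used. The deposited values are signal normalized with DESeq2 by the authors. The reads behind each library, and so its depth, are unknown: 14.95 to 22.11 percent of low values were whole multiples of 1 read (tolerance 0.1), so counts were not recovered. Of 30616 entries, 30587 genes were used, and 2 numeric columns that match no library were not. Log2 of the signal plus 1 was fitted with limma 3.58.1 (R 4.3.3) over all 30 libraries, for 16045 genes at 10 or more in at least 3, with trend and robust empirical Bayes steps and Benjamini-Hochberg adjustment at 0.05, and was tested on simulated data. There were 12 comparisons within models and 4 differences between models. Calls are those of this fit, without a block for library number, unless another setting is named. Alternatives were another pseudocount, other filters, quantile and pan-leukocyte scaling, a replicate block, library weights, separate fits, blood as reference and leaving out single libraries. Library numbers were taken to pair groups where every same-numbered pair correlated above 0.1 in its deviations from the group means, which held for B6 graft CD49a+ cells with B6 recipient skin and for no other pair of groups. Values by library are given for the 20 members with the most calls (ties by adjusted p) and the member of each list with the highest mean; other lists are named by smallest p. The members and lists were chosen with earlier results of these data known. 1 B cell marker is not reported here.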

Additional observations from a re-analysis of the deposited data

How the results depend on the processing

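Member calls depended on the processing in every skin comparison, and changes of sign were few. Counts below are of members called, with the main count in the report, and counts over all genes tested stand in brackets. Without the 6 skin libraries low in pan-leukocyte transcripts, 1 library was left in F1 recipient skin, B6 graft CD49a+ cells and B6 recipient skin. No count is given for comparisons with these groups in that setting. In F1 graft CD49a+ cells against spleen, 11 were higher with a filter at 50, which tests fewer members (all genes higher, 1133 of 7187). On the pan-leukocyte scale or with blood as reference 0 were lower. In F1 graft CD49b+ cells 5 were higher with quantile scaling, 15 on the pan-leukocyte scale, 15 with library weights and 14 without the 6 low skin libraries (all genes higher, 599, 2679, 3625 and 2981). With a pseudocount of 5, no filter, either scaling or blood 0 were lower. In F1 recipient skin 3 were higher with quantile scaling, 24 on the pan-leukocyte scale, 11 with weights and 2 in a fit of the groups compared (all genes higher, 734, 9214, 2982 and 475). On the pan-leukocyte scale 0 were lower. In B6 graft CD49a+ cells 3 were higher with a filter at 50, 1 with quantile scaling, 24 on the pan-leukocyte scale, 12 with weights and 14 with blood (all genes higher, 906 of 7187, then 691, 9698, 3748 and 2311). With a pseudocount of 5, on the pan-leukocyte scale, in a separate fit or with blood 0 were lower. In B6 recipient skin 2 were higher with a pseudocount of 5 or quantile scaling, 11 on the pan-leukocyte scale, 1 in a separate fit and 7 with blood (all genes higher, 2376, 1432, 7260, 616 and 3079). With a pseudocount of 5, on the pan-leukocyte scale or in a separate fit 0 were lower, and with blood 1 was. In B6 graft CD49b+ cells 5 were higher with weights, 6 without the low libraries, 1 in a separate fit and 6 with blood (all genes higher, 2999, 1982, 92 and 832). With weights 2 were lower (all genes lower, 1003). For B6 graft CD49a+ against CD49b+ cells 1 was higher on the pan-leukocyte scale (all genes higher, 16). In B6 spleen against blood 7 were higher with weights (all genes higher, 40). For F1 minus B6, graft CD49a+ cells gave 1 higher with no filter and 2 with weights (all genes higher, 3 and 13). Spleen against blood gave 1 lower with weights (all genes lower, 17). The causes were not tested.

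Leaving out 1 library gave 12 to 20 higher and 0 to 1 lower in F1 graft CD49a+ cells, 5 to 8 and 0 to 0 in F1 graft CD49b+ cells and 2 to 13 higher in F1 recipient skin. In B6 it gave 2 to 8 and 0 to 2 in graft CD49a+ cells, 0 to 3 and 0 to 2 in graft CD49b+ cells and 2 to 5 and 0 to 8 in recipient skin. Graft CD49a+ cells against recipient skin had 0 to 5 higher in B6 and 0 to 1 in F1. For F1 minus B6 the ranges were 0 to 2 higher in graft CD49a+ cells, 0 to 1 higher in recipient skin and 0 to 1 lower for spleen against blood.

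Same-numbered libraries deviated together in B6 skin: all 9 pairs among its 3 groups were positive (0.04 to 0.41), 6 of them above 0.1, and B6 graft CD49a+ cells and recipient skin were the 1 pair of groups with every pair above 0.1. The other 51 pairs, those of skin with spleen among them, ran from -0.27 to 0.10, so against spleen the number was not used as a pairing. The labels do not say whether same-numbered libraries share an animal, and these correlations cannot decide it. Between those paired groups the block called 177 genes over all, against 36 without it, and 0 members in both. With the number as a replicate block all 52 calls of single members passed by limma, and further members passed in each skin comparison with spleen. In B6 graft CD49b+ cells 2 were lower, S100a8 (adjusted p = 0.0354) and S100a9 (0.0485). In B6 graft CD49a+ cells Apoe, Il1r2 and Cxcl2 were higher (0.0341, 0.0405 and 0.0422). In B6 recipient skin Cxcr2 was higher (0.0212) and Itgax lower (0.0376). F1 graft CD49b+ cells had Mrc1 and S100a9 higher (0.0414 and 0.0359), and F1 graft CD49a+ cells Cd74 (0.0417). In F1 recipient skin Mrc1, Apoe and Cxcl2 were higher (0.044, 0.0408 and 0.0314). For F1 minus B6 in graft CD49a+ cells 1 was higher, S100a9 (0.0333). Of the 52 calls, 50 passed with weights, 47 with no filter, 45 on the pan-leukocyte scale, 39 with blood, 37 with a pseudocount of 5, 36 in separate fits and 31 with quantile scaling. With blood as reference the sign turned for S100a8 (0.28, adjusted p = 0.925) and S100a9 (0.12, 0.972) in B6 graft CD49a+ cells and S100a8 (0.37, 0.882) in B6 recipient skin. Without the low libraries C1qa in B6 graft CD49a+ cells was at 0.00, with 1 library left, where it is listed at 0. Values per library have no known depth, so low values cannot be given a counting interval.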
